A study of Mus musculus with 12 samples.

Results

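The genes described here are 30 genes of cholesterol synthesis and sterol regulation, chosen by name from the 56748 genes listed for mouse liver. They comprise 21 enzymes, 5 regulators (Srebf2, Scap, Insig1, Insig2 and Mylip) and 4 genes of sterol uptake, transport and storage (Npc1l1, Stard4, Tmem97 and Soat2). The enzymes are Acat2, Hmgcs1, Mvk, Pmvk, Mvd, Idi1, Fdps, Ggps1, Fdft1, Sqle, Lss, Cyp51, Tm7sf2, Lbr, Msmo1, Nsdhl, Hsd17b7, Ebp, Sc5d, Dhcr7 and Aacs. All but Npc1l1 had enough counts to be tested, which left 29.

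Poly(A)-selected RNA was sequenced from whole liver of 12-week-old mice that all bore pancreatic ductal adenocarcinoma, in 4 groups of 3 libraries. The controls (isotype) are labelled both as isotype control and as untreated, and the labels do not say which of these applied. The other groups received an agonistic antibody against CD40, an activating receptor on antigen-presenting cells (agoCD40), an antibody against IL-1R1, the signalling receptor of interleukin-1 (antiIL1R1), or both antibodies (Combo). The sources used here give neither the tumour model, strain and sex nor the doses and times of treatment. No label ties a library to an animal of its own, so the p-values measure only the spread between these libraries.

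The liver makes cholesterol from acetyl-CoA. Acetyl-CoA is built up to mevalonate and then to isoprenoid units, which are joined to squalene, closed into the ring of lanosterol and trimmed to cholesterol. The membrane-bound transcription factor SREBP-2, product of Srebf2, switches most of these enzymes on. When sterol is scarce, the escort SCAP carries SREBP-2 from the endoplasmic reticulum to the Golgi, where it is cut and released. When sterol is plentiful, the INSIG proteins hold SCAP back, and the genes of the pathway are transcribed less.

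SREBP binds sterol regulatory elements, often beside a CCAAT box bound by NF-Y, so the promoters of the members were searched for such letters in RefSeq's GRCm38.p6 windows of 300 bases (250 before to 50 after a start). Of the 30 members, 25 had an entry, with 31 windows between them. Fdps, Fdft1, Sqle, Stard4 and Soat2 had none. The motifs, searched on both strands, were TCACNCCAC for the sterol regulatory element, TCACGTGA for an E-box and CCAAT for NF-Y, and none of these overlaps another. TCACNCCAC was found in 1 member window, that of Hmgcs1, against 1.24% of all 32851 windows. TCACGTGA was found in 0 member windows and 0.974% of all windows. CCAAT was found in 22 of the 31 member windows (71.0%), belonging to 22 of the 25 genes, against 37.4% of all windows. A match is a description of the letters and not a measured site.

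The 250 bases before the start are printed for Hmgcs1, which holds the TCACNCCAC match and had the lowest Combo levels relative to the other groups, for Lss, the enzyme past the test's threshold, and for Insig1 and Insig2, the sterol sensors. Lss was added after its values were seen. Insig2 has 3 windows, of which the one with CCAAT is shown. The windows lie at chr13:119690101-119690350 (plus strand), chr10:76531355-76531604 (plus strand), chr5:28071162-28071411 (plus strand) and chr1:121332590-121332839 (minus strand) in GRCm38.p6. Each is written 5′ to 3′ on the gene's strand. Capitals mark CCAAT, or ATTGG where it lies on the opposite strand, and the TCACCCCAC of Hmgcs1, which begins 137 bases before the start.
Hmgcs1: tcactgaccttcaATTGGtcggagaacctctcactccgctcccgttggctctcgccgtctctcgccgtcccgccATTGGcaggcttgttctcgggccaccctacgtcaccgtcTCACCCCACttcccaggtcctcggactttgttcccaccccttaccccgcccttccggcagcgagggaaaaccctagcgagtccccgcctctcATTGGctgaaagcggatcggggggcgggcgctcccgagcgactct
Lss: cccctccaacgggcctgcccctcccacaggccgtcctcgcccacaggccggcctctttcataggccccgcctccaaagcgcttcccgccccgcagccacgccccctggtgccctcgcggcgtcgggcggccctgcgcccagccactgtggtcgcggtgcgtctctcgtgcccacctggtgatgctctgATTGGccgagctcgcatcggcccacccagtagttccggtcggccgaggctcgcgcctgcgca
Insig1: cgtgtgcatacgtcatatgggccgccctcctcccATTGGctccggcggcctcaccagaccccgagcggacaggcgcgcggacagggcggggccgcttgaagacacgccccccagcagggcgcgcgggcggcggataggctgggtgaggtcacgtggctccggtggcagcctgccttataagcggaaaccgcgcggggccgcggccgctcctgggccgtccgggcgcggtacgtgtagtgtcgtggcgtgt
Insig2: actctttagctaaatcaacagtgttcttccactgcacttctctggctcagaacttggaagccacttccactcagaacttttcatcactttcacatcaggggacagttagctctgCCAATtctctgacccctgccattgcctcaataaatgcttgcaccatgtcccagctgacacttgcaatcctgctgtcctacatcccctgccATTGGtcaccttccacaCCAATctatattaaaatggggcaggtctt

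Total estimated counts ranged from 18681390 to 27118712 per library, and mitochondrial transcripts took 6.23% to 14.8% of the counts. The highest mitochondrial shares were 14.1% in isotype 2 and 14.8% in antiIL1R1 2. Hepatocyte markers were abundant everywhere: the 10 markers summed to 81576 to 110980 CPM in isotype, 72463 to 89949 in agoCD40, 98632 to 111106 in antiIL1R1 and 71390 to 76858 in Combo. The 9 markers of exocrine pancreas summed to 8.20 to 21.5 CPM over the 12 libraries, with 7 of them at 0 in isotype, agoCD40 and antiIL1R1 and 6 at 0 in Combo. The 7 markers of small intestine summed to 77.6 to 106 CPM in isotype, 84.0 to 148 in agoCD40, 76.5 to 134 in antiIL1R1 and 69.6 to 178 in Combo, with 2 to 4 of them at 0 per group and Sis and Alpi at 0 in all 12 libraries.

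The synthesis enzymes were at their lowest in livers given both antibodies. The Combo mean was the lowest of the 4 group means for 17 of the 21 enzymes, and the antiIL1R1 mean was the highest for 17. For 9 members, all enzymes, the 3 Combo libraries lay below each of the 9 other libraries: Hmgcs1, Mvd, Idi1, Fdft1, Sqle, Lss, Cyp51, Nsdhl and Sc5d. The same held for 1.24% of the 15465 genes tested. On the deposited TPM, checked for these 9 only, it held for 3, Hmgcs1, Mvd and Cyp51, and the 6 others overlapped. The share over all genes was counted on CPM and not on TPM. For Idi1 and Sc5d the gap was narrow, with the highest Combo library at 178 and 509 CPM and the lowest other library at 181 and 511. CPM are counts relative to the scaled library total and are not corrected for length. TPM and CPM also differed in scale between libraries. Each gene's ratio of TPM to CPM was set against its median over the 12 libraries. Over the 29 tested members, the median of this was 0.754 in isotype 2, 0.762 in antiIL1R1 2 and 1.13 in Combo 1. For Lss it was 0.715, 0.565 and 2.03. What lay behind the overlaps on TPM was not tested.

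Few differences passed the test across all genes, edgeR's quasi-likelihood F test with Benjamini-Hochberg adjustment and a threshold of 0.05. In Combo against antiIL1R1 1 of the 29 members passed, Lss, where 0.175% of all genes passed. In agoCD40 against isotype 1 member passed, Soat2, with a background of 0.718%. No member passed in Combo against isotype (0.407% of genes), Combo against agoCD40 (0.00647%) or the interaction (0.00647%). In antiIL1R1 against isotype 0 genes passed (0%), with 565 at an unadjusted p under 0.05 and 3 in DESeq2. The groups are shared between these comparisons, which are therefore not independent of each other.

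**Figure D1:**
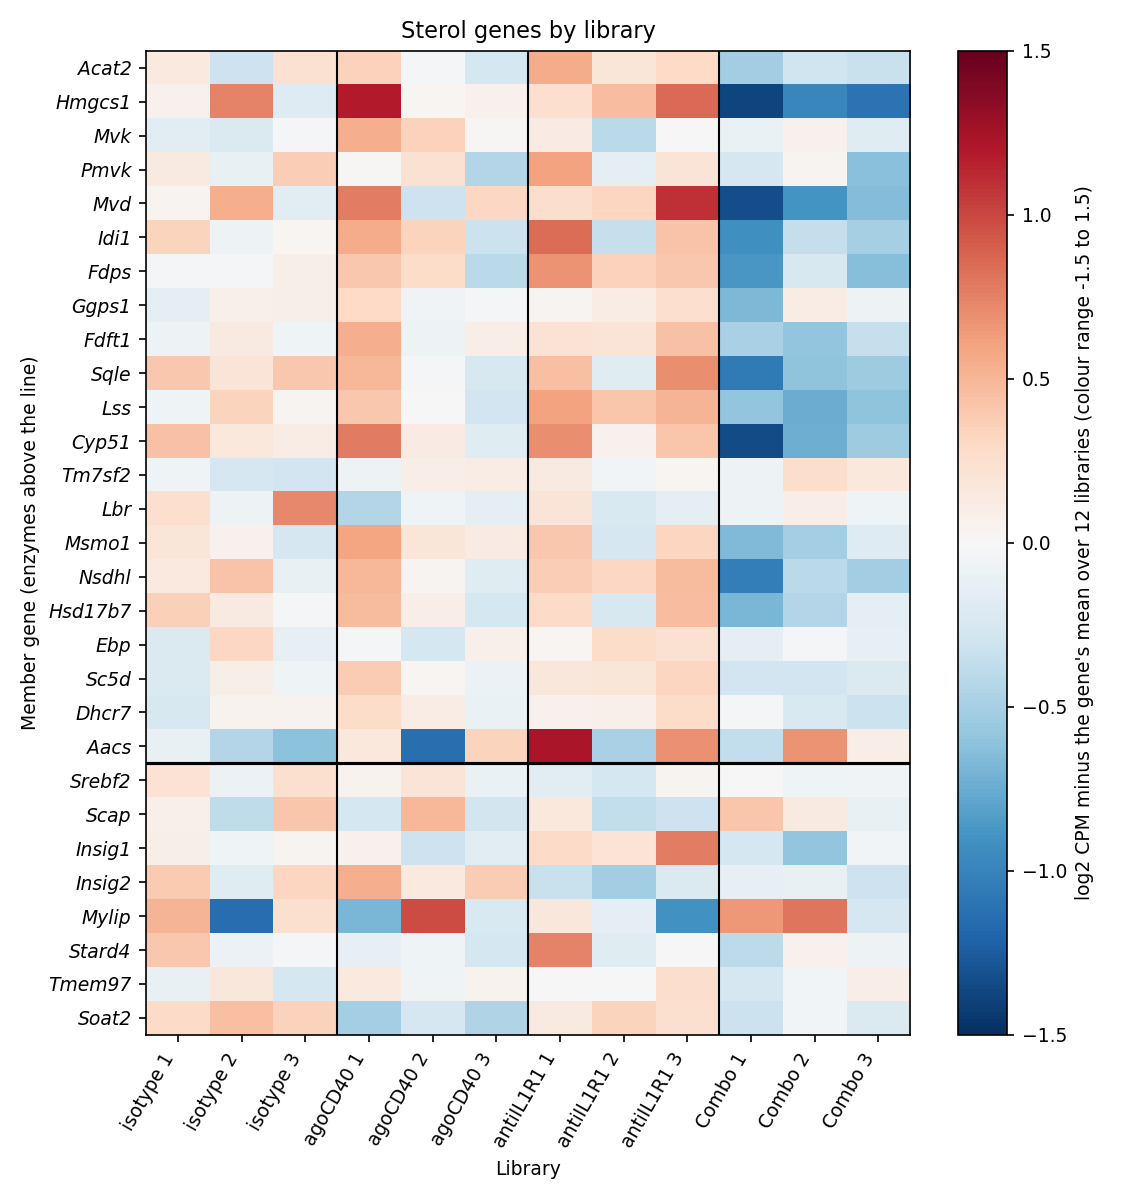
Level of the 29 tested members in each of the 12 libraries, as log2 CPM minus the gene's mean over the libraries, with rows ordered by step of the pathway and columns by group. The Combo columns hold the lowest values for most enzymes, and Combo 1 alone holds the lowest value of 12 of the 21.

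The first steps join acetyl-CoA units. Hmgcs1, which makes HMG-CoA in the cytosol, was measured at 391, 629.8 and 328 CPM in isotype, 857, 383 and 393 in agoCD40, 446, 516 and 674 in antiIL1R1 and 144, 189.8 and 174 in Combo. All 3 Combo libraries were below the 9 others, and agoCD40 1 stood well above the rest of its group. On the log2 scale, with the standard error, the difference from antiIL1R1 was -1.69 ± 0.33 (adjusted p = 0.0695), from agoCD40 -1.68 ± 0.33 (adjusted p = 0.158) and from isotype -1.41 ± 0.32 (adjusted p = 0.1). The fitted Combo level was 31.0%, 31.1% and 37.7% of these groups. None of the adjusted p-values reached the threshold.

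Acat2, the cytosolic thiolase that condenses acetyl-CoA before Hmgcs1, was measured at 92.2, 67.2 and 97.3 CPM in isotype, 106, 82.2 and 69.2 in agoCD40, 122, 94.3 and 103 in antiIL1R1 and 57.9, 67.4 and 66.2 in Combo. The Combo libraries were below every antiIL1R1 and agoCD40 library, but isotype 2 lay among them. The mouse has a close copy of this gene, Acat3, and how the authors' counting shared reads between them is not stated, so its level is uncertain. For Acat2 the log2 difference of Combo was -0.74 ± 0.19 (adjusted p = 0.138) from antiIL1R1, -0.43 ± 0.19 (adjusted p = 0.790) from agoCD40 and -0.42 ± 0.19 (adjusted p = 0.426) from isotype.

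The next 6 enzymes turn mevalonate into isoprenoids. Mvd, the decarboxylase that yields isopentenyl diphosphate, was measured at 22.0, 31.0 and 19.1 CPM in isotype, 36.2, 17.1 and 26.5 in agoCD40, 25.7, 26.7 and 45.4 in antiIL1R1 and 8.47, 11.5 and 13.6 in Combo. The groups given 1 antibody or none overlapped each other, and Combo lay below them all. For Mvd the log2 difference of Combo was -1.55 ± 0.31 (adjusted p = 0.0777) from antiIL1R1, -1.25 ± 0.31 (adjusted p = 0.353) from agoCD40 and -1.10 ± 0.31 (adjusted p = 0.173) from isotype.

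Idi1, the isomerase of isopentenyl diphosphate, was measured at 288, 217 and 233 CPM in isotype, 337, 289 and 184 in agoCD40, 411, 181 and 307 in antiIL1R1 and 121, 178 and 163 in Combo. The highest Combo library nearly reached the lowest antiIL1R1 library. For Idi1 the log2 difference of Combo was -0.96 ± 0.29 (adjusted p = 0.183) from antiIL1R1, -0.81 ± 0.29 (adjusted p = 0.697) from agoCD40 and -0.67 ± 0.29 (adjusted p = 0.393) from isotype.

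Fdps, which makes farnesyl diphosphate, was measured at 205, 205 and 219 CPM in isotype, 275, 251 and 156 in agoCD40, 330.3, 264 and 275 in antiIL1R1 and 113, 176 and 133 in Combo. Combo lay below isotype and antiIL1R1, and agoCD40 3 lay within the Combo range. For Fdps the log2 difference of Combo was -1.04 ± 0.22 (adjusted p = 0.0777) from antiIL1R1, -0.70 ± 0.22 (adjusted p = 0.559) from agoCD40 and -0.58 ± 0.22 (adjusted p = 0.323) from isotype.

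Mvk, Pmvk and Ggps1 are the other enzymes of this stretch. For Mvk, the mevalonate kinase, the Combo libraries at 23.6, 26.5 and 22.4 CPM overlapped all other groups, with 22.7, 21.9 and 24.8 in isotype, 37.0, 32.1 and 25.7 in agoCD40 and 27.6, 19.2 and 25.4 in antiIL1R1. It was 1 of 2 enzymes whose unadjusted p was under 0.05 in agoCD40 against isotype (log2 0.45 ± 0.17, adjusted p = 0.358), and its value in Combo against agoCD40 was -0.39 ± 0.17 (adjusted p = 0.790). Pmvk, the kinase after it, and Ggps1, which makes the geranylgeranyl chain used on proteins, had their lowest mean in Combo and their highest in antiIL1R1, with no unadjusted p under 0.05 in any comparison.

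Squalene and the sterol ring come from 3 enzymes, and each had its 3 lowest libraries in Combo. Lss, which closes the ring to lanosterol, was measured at 62.0, 82.1 and 66.8 CPM in isotype, 86.0, 64.7 and 53.0 in agoCD40, 98.8, 86.7 and 92.4 in antiIL1R1 and 43.0, 38.7 and 42.8 in Combo. The Combo libraries were close together and below all others, and the antiIL1R1 libraries were above all isotype libraries. The means were 41.5 ± 2.40 CPM in Combo and 92.6 ± 6.04 in antiIL1R1 (SD, n = 3). Lss fell in Combo to 44.8% of the antiIL1R1 level (log2 -1.16 ± 0.18, SE; adjusted p = 0.0243). The log2 difference of Lss from agoCD40 was -0.71 ± 0.18 (adjusted p = 0.379) and from isotype -0.76 ± 0.18 (adjusted p = 0.112).

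The Lss call rested on each library compared. It was lost when any 1 of the 6 libraries compared was left out (adjusted p 0.0574 to 0.144, log2 below 0 each time). On the deposited TPM, which correct for length and are scaled to the same total, Lss did not keep the pattern. There limma gave a log2(TPM + 1) difference of -0.47 (adjusted p = 0.474). Combo 1 had 23.3 TPM against 9.73 and 9.55 in the other Combo libraries, while its CPM was close to theirs.

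Sqle, the epoxidase that adds oxygen to squalene, was measured at 118, 102 and 118 CPM in isotype, 126, 87.7 and 75.4 in agoCD40, 122, 78.8 and 145 in antiIL1R1 and 42.8, 58.4 and 61.3 in Combo. The lowest libraries outside Combo were agoCD40 3 and antiIL1R1 2. For Sqle the log2 difference of Combo was -1.09 ± 0.24 (adjusted p = 0.0885) from antiIL1R1, -0.83 ± 0.24 (adjusted p = 0.517) from agoCD40 and -1.05 ± 0.24 (adjusted p = 0.0999) from isotype.

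Fdft1, which joins farnesyl units to squalene, was measured at 146, 169.5 and 147 CPM in isotype, 225, 146 and 165 in agoCD40, 179, 176 and 208 in antiIL1R1 and 109.7, 102 and 121 in Combo. The agoCD40 libraries overlapped both isotype and antiIL1R1, while all antiIL1R1 libraries lay above all isotype libraries on CPM. On TPM the antiIL1R1 and isotype libraries overlapped, with means of 69.9 and 69.0. For Fdft1 the log2 difference of Combo was -0.76 ± 0.17 (adjusted p = 0.0901) from antiIL1R1, -0.68 ± 0.17 (adjusted p = 0.363) from agoCD40 and -0.47 ± 0.17 (adjusted p = 0.304) from isotype.

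**Figure D2:**
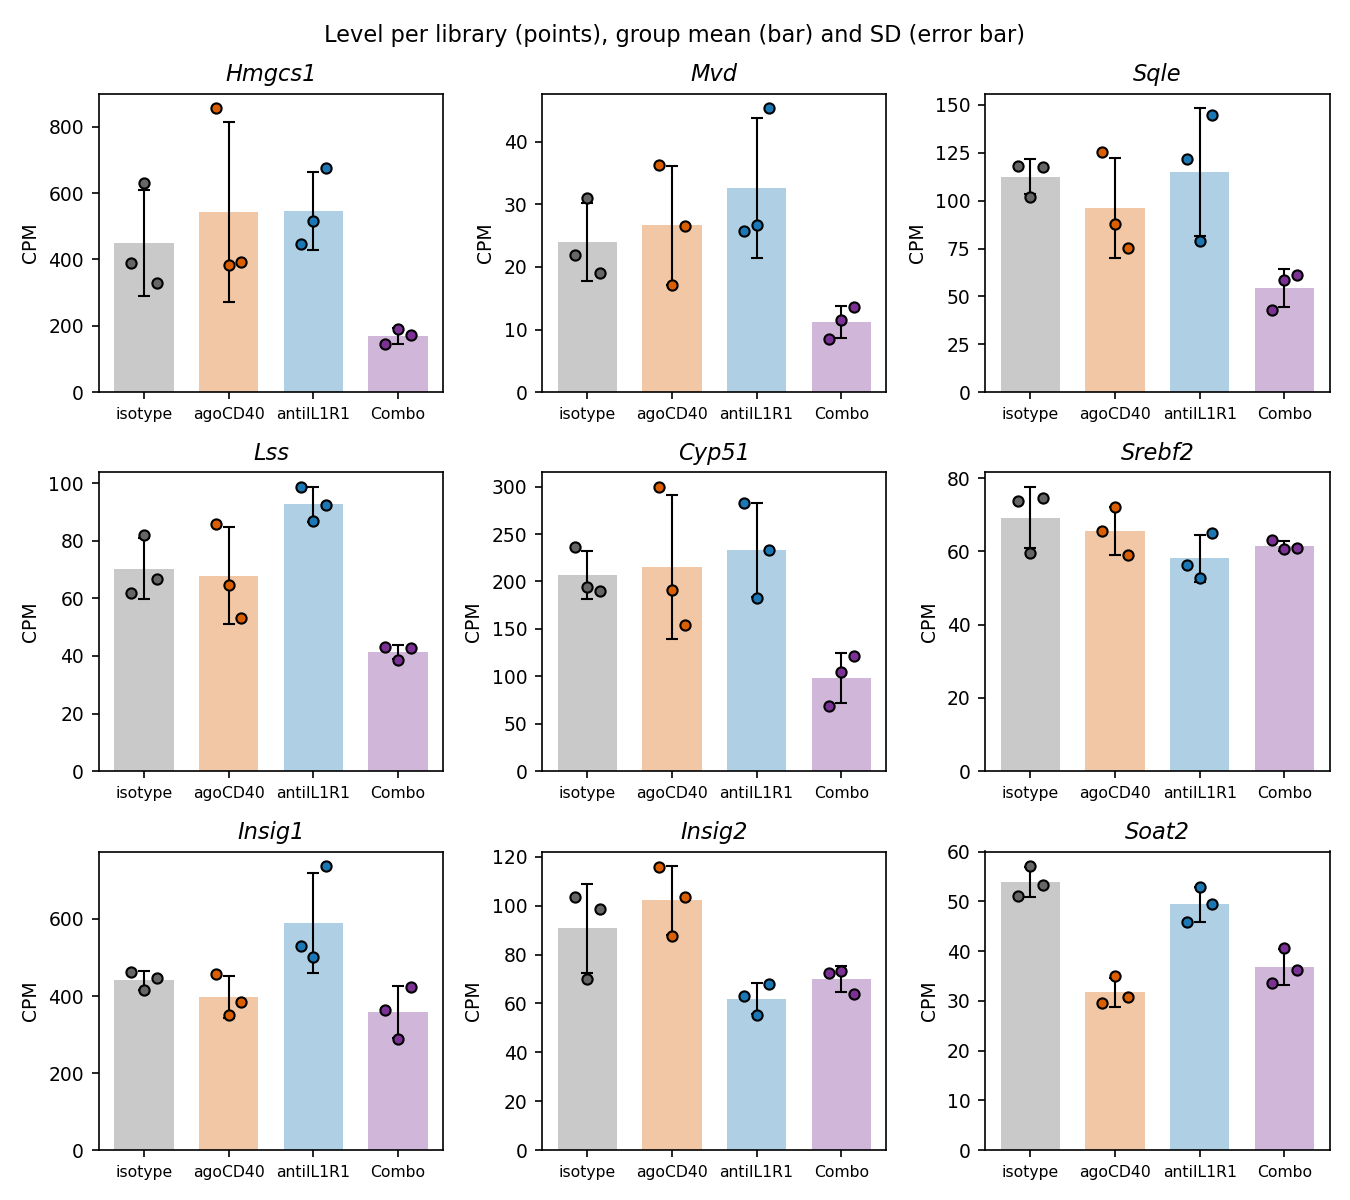
CPM (vertical axis, from 0) of 9 members by group, with points for libraries, bars for group means and error bars for the SD (n = 3). Hmgcs1, Mvd, Sqle, Lss and Cyp51 lie lowest in the 3 Combo libraries, while Soat2 lies lower in both groups that received the CD40 agonist.

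Lanosterol is trimmed to cholesterol by 9 of the members. Cyp51, the lanosterol demethylase, was measured at 236, 194 and 189 CPM in isotype, 299.9, 191 and 154 in agoCD40, 283, 183 and 233 in antiIL1R1 and 69.0, 105 and 121 in Combo. Combo lay below all other libraries, and agoCD40 1 and antiIL1R1 1 were the highest. For Cyp51 the log2 difference of Combo was -1.25 ± 0.27 (adjusted p = 0.0777) from antiIL1R1, -1.13 ± 0.27 (adjusted p = 0.304) from agoCD40 and -1.07 ± 0.27 (adjusted p = 0.131) from isotype.

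Nsdhl, a dehydrogenase of the step that removes the methyl groups at carbon 4, was measured at 99.8, 121 and 83.1 CPM in isotype, 128, 92.9 and 79.8 in agoCD40, 116, 111 and 125 in antiIL1R1 and 44.0, 68.0 and 62.5 in Combo. Combo again lay below the 9 others. For Nsdhl the log2 difference of Combo was -1.01 ± 0.21 (adjusted p = 0.0777) from antiIL1R1, -0.78 ± 0.21 (adjusted p = 0.473) from agoCD40 and -0.80 ± 0.21 (adjusted p = 0.156) from isotype.

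Msmo1, the oxidase of the same demethylation, was measured at 276, 254 and 205 CPM in isotype, 368, 276 and 264 in agoCD40, 322, 205 and 304 in antiIL1R1 and 154, 171 and 213 in Combo. The highest Combo library overlapped isotype 3 and antiIL1R1 2. For Msmo1 the log2 difference of Combo was -0.62 ± 0.21 (adjusted p = 0.214) from antiIL1R1 and -0.75 ± 0.21 (adjusted p = 0.482) from agoCD40.

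Hsd17b7, the reductase that completes this demethylation, was measured at 108, 92.3 and 82.4 CPM in isotype, 117, 89.9 and 70.3 in agoCD40, 103, 71.4 and 116 in antiIL1R1 and 52.5, 62.0 and 76.1 in Combo. Combo 3 reached into the agoCD40 and antiIL1R1 ranges. For Hsd17b7 the log2 difference of Combo was -0.61 ± 0.23 (adjusted p = 0.255) from antiIL1R1, -0.54 ± 0.23 (adjusted p = 0.777) from agoCD40 and -0.57 ± 0.23 (adjusted p = 0.358) from isotype.

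Sc5d, the late desaturase, was measured at 511, 634 and 568 CPM in isotype, 770.5, 604 and 557 in agoCD40, 669, 675 and 743 in antiIL1R1 and 486, 488 and 509 in Combo. Its Combo libraries were the closest together of its groups. For Sc5d the log2 difference of Combo was -0.49 ± 0.15 (adjusted p = 0.187) from antiIL1R1 and -0.38 ± 0.15 (adjusted p = 0.763) from agoCD40, the smallest among the 9 enzymes without overlap.

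Dhcr7, which makes cholesterol from 7-dehydrocholesterol, was measured at 95.3, 117 and 117 CPM in isotype, 136, 122 and 105 in agoCD40, 118, 119 and 137 in antiIL1R1 and 111, 95.9 and 90.4 in Combo. Combo overlapped isotype and agoCD40. Its log2 difference in Combo from antiIL1R1 was -0.33 ± 0.15 (adjusted p = 0.325).

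Of the other reductive or isomerising steps, Tm7sf2 and Lbr had other patterns. Tm7sf2, a sterol reductase, had its highest library in Combo, and its log2 difference in Combo from isotype was 0.32 ± 0.14 (adjusted p = 0.402). Lbr, a second reductase for the same double bond that is also a nuclear envelope protein, had a log2 difference of -0.55 ± 0.21 (adjusted p = 0.355) in agoCD40 against isotype. Ebp, the isomerase, had its lowest mean in Combo and its highest in antiIL1R1, as most enzymes did. It had no unadjusted p under 0.05 in any comparison, and its levels ranged 1.48-fold over the 12 libraries.

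Aacs, which activates the ketone body acetoacetate for synthesis, was the most uneven enzyme apart from Hmgcs1 and Mvd, with a 5.11-fold range from agoCD40 2 to antiIL1R1 1. Its log2 difference in antiIL1R1 against isotype was 1.00 ± 0.43 (adjusted p = 0.987).

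The enzymes were then counted at an unadjusted p under 0.05, beside the share of all genes. Against antiIL1R1, 14 enzymes were lower in Combo at that level and 0 higher (members: 16 of 29 lower, all genes: 7.00% lower), and the median log2 difference was -0.62 over the enzymes and 0.03 over all genes. Against agoCD40, 14 enzymes were lower and 0 higher (members: 15 of 29 lower, all genes: 2.79%), with medians of -0.54 and 0.01. Against isotype, 11 enzymes were lower and 1 higher (members: 13 of 29 lower, all genes: 5.55%), with medians of -0.45 and -0.02. The genes of 1 pathway share regulators and libraries and are not independent of each other.

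DESeq2, run as an alternative on the same counts, passed more members at an adjusted p of 0.05. In Combo against antiIL1R1 it passed 12, all lower, where 1.02% of genes were lower: Acat2, Hmgcs1, Mvd, Idi1, Fdps, Fdft1, Sqle, Lss, Cyp51, Nsdhl, Sc5d and Insig1. In Combo against isotype it passed 7, all lower (0.793% of genes): Hmgcs1, Mvd, Sqle, Lss, Cyp51, Nsdhl and Soat2. In Combo against agoCD40 it passed 4, all lower (0.142%): Hmgcs1, Mvd, Fdft1 and Cyp51.

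**Figure D3:**
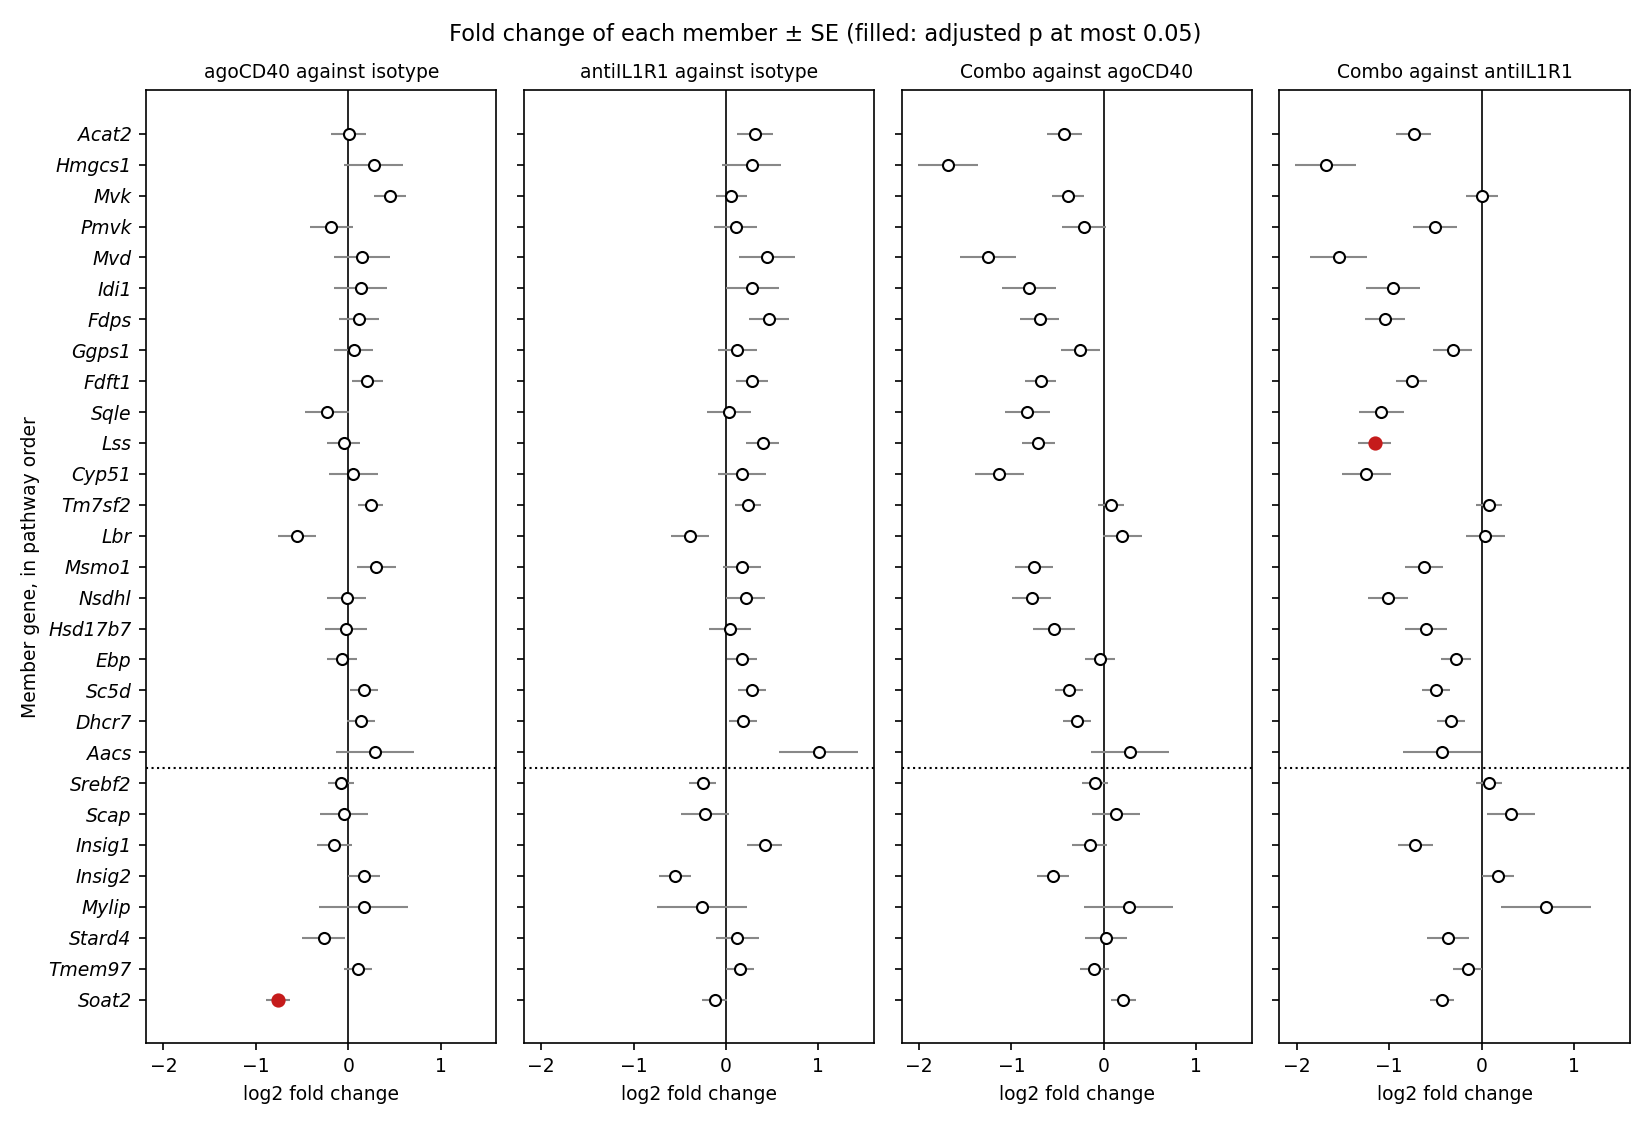
Log2 fold change with its standard error for the members in 4 comparisons: each single antibody against isotype, and Combo against each single antibody, from the edgeR fit. Filled points mark an adjusted p of at most 0.05 and the dotted line parts the enzymes from the other members. Of the 21 enzymes 17 lie below 0 in both Combo comparisons, and the filled points are Soat2 in agoCD40 against isotype and Lss in Combo against antiIL1R1.

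These levels come from whole liver, in which fewer cells of a type and less RNA per cell cannot be told apart. Summed hepatocyte markers were also lower in Combo, with a log2 ratio of mean sums of -0.50 against antiIL1R1, -0.37 against isotype and -0.17 against agoCD40. In Combo against antiIL1R1, 8 of the 10 hepatocyte markers were negative, 0 passed, and their median log2 difference was -0.34. Kupffer cell markers (7) summed to 244 to 431 CPM in isotype, 116 to 183 in agoCD40, 199 to 241 in antiIL1R1 and 153 to 211 in Combo. B and plasma cell markers (8) summed to 13.5 to 23.2, 98.4 to 257, 23.5 to 30.4 and 145 to 193 CPM, and neutrophil markers (7) to 13.2 to 33.5, 40.9 to 72.0, 2.29 to 6.51 and 27.0 to 62.8. Markers of bile duct and carcinoma epithelium (8) summed to 124 to 183, 117 to 141, 122 to 176 and 75.7 to 129.6 CPM, and T cell markers (6) to 2.3 to 5.78, 5.01 to 9.46, 1.32 to 3.89 and 5.86 to 8.33. Erythroid markers (5) summed to 428 to 1788, 709 to 2789, 822 to 1296 and 1850 to 2944 CPM in the same order. Their part in the enzyme levels was not tested.

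Single libraries differed within groups. The median of the enzymes' centred log2 CPM was 0.04, 0.07 and -0.03 in isotype, 0.41, 0.03 and -0.10 in agoCD40, 0.29, 0.08 and 0.41 in antiIL1R1, and -0.60, -0.30 and -0.33 in Combo. The Combo libraries were the 3 lowest, and agoCD40 1 stood above its group. That library held the highest value of 9 enzymes. Without it, the median enzyme difference of Combo from agoCD40 was -0.34 instead of -0.54. The median of agoCD40 against isotype was -0.09 instead of 0.12.

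**Figure D4:**
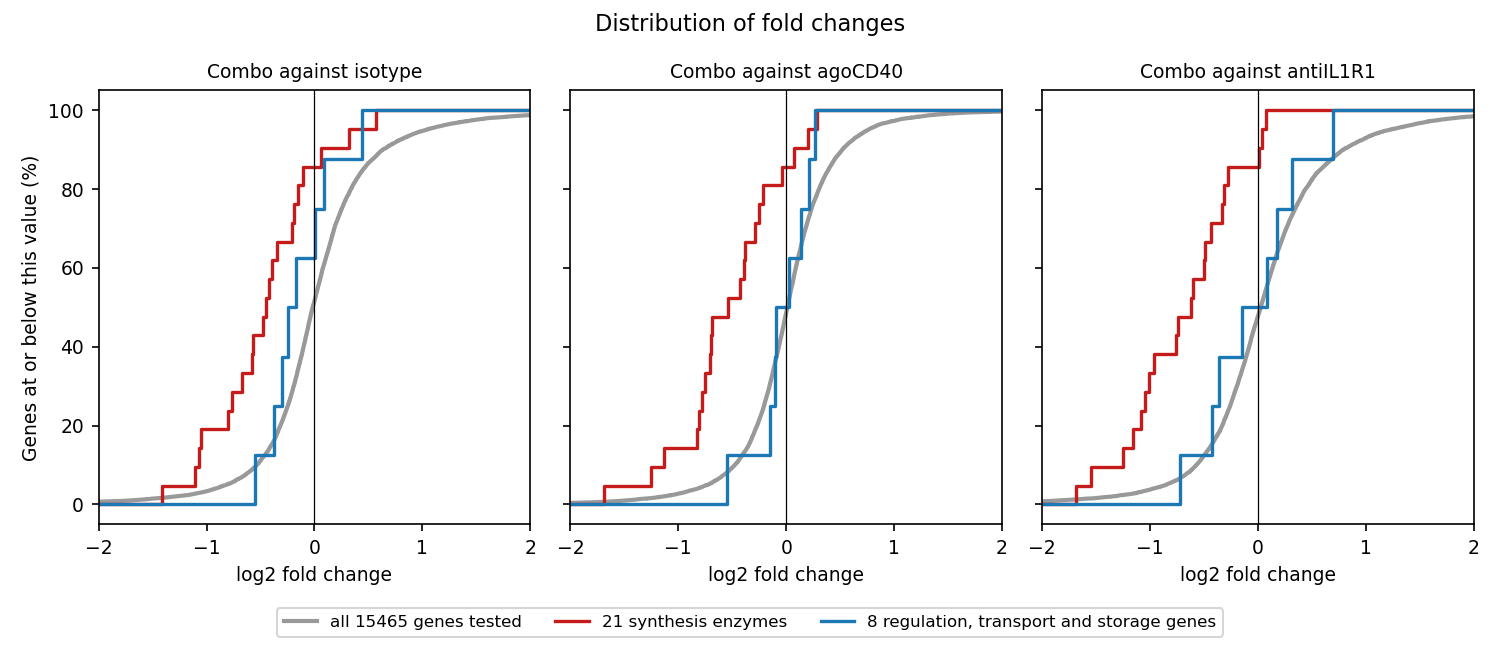
Cumulative share of log2 fold changes for the synthesis enzymes, the other members and all genes tested, in the comparisons of Combo with the 3 other groups. The enzyme curves lie mostly to the left of the curves of all genes, with medians of -0.45, -0.54 and -0.62 against isotype, agoCD40 and antiIL1R1.

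On the deposited TPM scale the groups separated less. The enzymes' TPM summed to 1939, 1432 and 1913 in isotype, 2155, 2053 and 1524 in agoCD40, 2340, 1419 and 1927 in antiIL1R1 and 1420.0, 1612 and 1354 in Combo. The sums of agoCD40 3, isotype 2 and antiIL1R1 2 lay within the Combo range, and isotype 2 and antiIL1R1 2 had the highest mitochondrial shares. With limma on log2(TPM + 1), no member passed in any of the Combo comparisons, and the median enzyme difference from antiIL1R1 was -0.33, where all genes had a median of 0.20. Total-count scaling moved the median of all genes in that comparison to 0.19, against 0.03 with TMM.

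Of the regulators, Insig1 had its group means in the order seen for most enzymes, with Combo lowest and antiIL1R1 highest, and the 4 others did not. Srebf2, which encodes SREBP-2, was measured at 73.8, 59.5 and 74.5 CPM in isotype, 65.5, 72.1 and 59.2 in agoCD40, 56.4, 52.8 and 65.1 in antiIL1R1 and 63.0, 60.7 and 60.8 in Combo. Its groups overlapped, and its 1.41-fold range over the 12 libraries was the narrowest of the 29 tested members on CPM. On TPM it was not the narrowest, with a 1.95-fold range for Srebf2 and 1.35-fold for Ebp. Scap, the escort, was measured at 152, 111 and 194 CPM in isotype, 120.3, 204 and 119.6 in agoCD40, 162, 112 and 116 in antiIL1R1 and 193, 159 and 134 in Combo. Every group overlapped every other.

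Insig1, an anchor for SCAP that is itself a target of SREBP, was measured at 463, 415 and 446 CPM in isotype, 456, 350.1 and 386 in agoCD40, 529.6, 501 and 738 in antiIL1R1 and 363, 287 and 423 in Combo. The antiIL1R1 libraries were the 3 highest, and Combo and agoCD40 overlapped. On TPM they were not the highest, with antiIL1R1 2 at 188 and isotype 1 at 239. The log2 difference of Combo from antiIL1R1 was -0.72 ± 0.19 (adjusted p = 0.138), and that of antiIL1R1 from isotype 0.42 ± 0.19 (adjusted p = 0.987).

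Insig2, the other anchor, was measured at 104, 69.9 and 98.6 CPM in isotype, 116, 87.5 and 103 in agoCD40, 62.9, 55.1 and 68.0 in antiIL1R1 and 72.6, 73.3 and 63.9 in Combo. All antiIL1R1 libraries lay below all isotype and agoCD40 libraries, the opposite order to Insig1. The gap was narrow, with antiIL1R1 3 at 68.0 and isotype 2 at 69.9 CPM. On TPM the libraries overlapped, with antiIL1R1 1 at 47.5 and isotype 2 at 29.8. The log2 difference was -0.55 ± 0.17 (adjusted p = 0.987) in antiIL1R1 against isotype, -0.55 ± 0.17 (adjusted p = 0.572) in Combo against agoCD40 and -0.37 ± 0.17 (adjusted p = 0.435) in Combo against isotype. Both groups with IL-1R1 blockade thus had lower Insig2 means, 62.0 ± 6.49 and 69.9 ± 5.21 CPM, than isotype at 90.7 ± 18.2 and agoCD40 at 102 ± 14.1 (SD, n = 3), none past the threshold.

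Mylip, a ubiquitin ligase that marks lipoprotein receptors for breakdown, was measured at 11.6, 3.67 and 9.61 CPM in isotype, 5.05, 15.9 and 6.92 in agoCD40, 9.10, 7.35 and 4.33 in antiIL1R1 and 12.8, 14.1 and 6.79 in Combo. It was low and uneven in every group, with no unadjusted p under 0.05.

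Soat2, which esterifies cholesterol for storage and for lipoproteins, was measured at 51.1, 57.2 and 53.3 CPM in isotype, 29.5, 35.1 and 30.7 in agoCD40, 45.9, 52.9 and 49.4 in antiIL1R1 and 33.5, 40.6 and 36.2 in Combo. All agoCD40 and Combo libraries were below all isotype and antiIL1R1 libraries on CPM, and the groups were tight. On TPM this separation held for the agoCD40 libraries but not for Combo. Combo 2 at 25.5 TPM lay above isotype 2 at 24.7 and antiIL1R1 2 at 23.1, and also above antiIL1R1 3. Soat2 fell in agoCD40 to 59.0% of isotype (log2 -0.76 ± 0.13, SE; adjusted p = 0.0188; means 31.8 ± 2.92 against 53.9 ± 3.07 CPM, SD, n = 3). For Soat2 the log2 difference was -0.55 ± 0.13 (adjusted p = 0.117) in Combo against isotype and -0.43 ± 0.13 (adjusted p = 0.188) in Combo against antiIL1R1. The Soat2 call in agoCD40 was lost without agoCD40 1 (adjusted p = 0.132), agoCD40 3 (0.117) or isotype 3 (0.0605), on TPM with limma (0.177) and with only the groups compared in the fit (0.128). Hepatocyte markers in agoCD40 had a log2 ratio of mean sums of -0.20 to isotype, and their part in this result was not tested.

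The transport genes showed no separate groups. Stard4, which moves cholesterol between membranes, was measured at 174, 124 and 130.0 CPM in isotype, 121, 126 and 109.7 in agoCD40, 219.9, 116 and 131 in antiIL1R1 and 100.3, 138 and 124 in Combo. Tmem97, an endoplasmic reticulum protein of sterol handling, was measured at 103, 126 and 93.2 CPM in isotype, 124, 108 and 116 in agoCD40, 113, 112 and 134 in antiIL1R1 and 94.1, 109 and 120.1 in Combo. Both overlapped in all groups, with no unadjusted p under 0.05. Npc1l1, the cholesterol importer of the gut, had a count of 1 in each of agoCD40 3, antiIL1R1 3 and Combo 3 and 0 in the other 9 libraries. A count of 0 allows up to 3 counts, or 0.110 to 0.161 CPM depending on the library, so its level was not measurable here.

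Members below an unadjusted p of 0.05 were also counted for each antibody alone. In agoCD40 against isotype, 3 of the 29 members were below it, a share near that of all genes (10.2%). Lbr and Soat2 were lower and Mvk higher. The enzymes' median log2 difference was 0.12. In antiIL1R1 against isotype 5 members had such a p (3.65% of all genes): Aacs, Fdps (log2 0.47 ± 0.21), Lss (0.40 ± 0.18) and Insig1 were higher and Insig2 lower, each with an adjusted p of 0.987. Of the 21 enzymes, 20 had a positive sign, with a median of 0.21, where 46.4% of all genes were positive, with a median of -0.02. On TPM with limma the enzymes' median was 0.022, and Lss had a negative sign (-0.08 with a pseudocount of 1).

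The interaction asks whether the agonist's effect differed with and without IL-1R1 blockade. Of the 29 members, 13 had an unadjusted p under 0.05, all negative and all enzymes (2.87% of all genes were negative at that level). The median was -0.74 over the enzymes and 0.03 over all genes. The largest log2 values were Hmgcs1 at -1.96 ± 0.45 (adjusted p = 0.286), Mvd at -1.69 ± 0.43 (adjusted p = 0.372) and Cyp51 at -1.30 ± 0.37 (adjusted p = 0.492), and Lss stood at -1.11 ± 0.25 (adjusted p = 0.286), none past the threshold. DESeq2 passed 5 members, all negative (0.160% of genes): Hmgcs1, Mvd, Fdps, Fdft1 and Lss.

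Per length, as the median TPM over the 12 libraries, the most abundant members were Sc5d at 281, Fdps at 236, Insig1 at 193, Ebp at 181, Msmo1 at 175, Tm7sf2 at 161 and Hmgcs1 at 152. The least abundant tested members were Lbr at 4.63, Ggps1 at 3.98 and Mylip at 3.18. Srebf2 stood at 16.8 and Lss at 16.7, within the lower part of that order.

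Among 39 other genes of sterol handling, 1 passed in agoCD40 against isotype and 0 in the other comparisons. Srebf1, which encodes SREBP-1, the regulator of fatty acid synthesis, was measured at 461, 468 and 355 CPM in isotype, 190.1, 243 and 238 in agoCD40, 452, 518 and 605 in antiIL1R1 and 417, 415 and 532 in Combo. The agoCD40 libraries were the lowest, and Srebf1 fell there against isotype (log2 -0.94 ± 0.18, adjusted p = 0.0295), with a difference of 1.02 ± 0.18 (adjusted p = 0.121) in Combo against agoCD40. In Combo against antiIL1R1, 6 of the 39 were higher and 3 lower at an unadjusted p under 0.05, where 8.34% of all genes were higher and 7.00% lower. The median of the 39 was 0.20, against 0.03 over all genes. Acat1, the mitochondrial thiolase, had a log2 difference of -0.81 ± 0.17 (adjusted p = 0.0777) there. The median of the 39 was 0.10 in Combo against isotype and 0.13 in Combo against agoCD40, above 0 where the enzymes' medians were below it.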

How the data were processed

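Liver RNA of 12 libraries, 3 per group, was compared. Each library has 1 column in both tables that the authors deposited, of which the first holds estimated counts of reads per gene, not scaled between libraries and in part not whole numbers, and the second TPM scaled to the same total. The deposited TPM served for levels per length and for 2 alternatives. The submitters' processing notes name the build GRCm39, the aligner STAR and RSEM 1.3.1, and further FastQC 0.12.1, cutadapt, bedtools 2.30.0, DESeq2 1.28.0 and StringTie 2.2.1, with no role given for each. Both deposited measures are named as merged output of Salmon, a tool that the notes do not list. Its settings and any use of strand are not given in the sources used here, so reads of overlapping or antisense genes cannot be told apart.

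Counts were rounded to whole numbers and fitted in R 4.3.3 with edgeR 4.0.16. A single fit with a mean per group and TMM scaling took in the 12 libraries and the 15465 genes kept by filterByExpr (minimum count 10), and differences were tested by the quasi-likelihood F test. P-values were adjusted over these genes by Benjamini and Hochberg's method, with a threshold of 0.05. The biological coefficient of variation was 0.291. Standard errors are the log2 fold change divided by the root of F. The interaction is Combo minus antiIL1R1 minus the difference of agoCD40 and isotype. CPM use TMM-scaled totals of the genes kept. The steps were tested on simulated data.

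The members and all gene lists were chosen with earlier results of these data known, so no test is made of a list. Levels in every library are given for members with an adjusted p of 0.05 or less in any comparison, or an unadjusted p under 0.05 in 2 or more, and for the regulators and the uptake, transport and storage genes. Fold changes are given where the unadjusted p was under 0.05. Of the other 39 sterol genes, those past the threshold or with 1 of the 2 smallest p of a comparison could be named, and a part of these is given. Alternatives were RLE and total-count scaling, DESeq2 1.42.0, no filter, a fit of only the groups compared, limma 3.58.1 on log2(TPM + 1) and log2(TPM + 0.1), a replicate block, the mitochondrial percent as a covariate, and leaving out libraries. Promoter letters are RefSeq's GRCm38.p6, another build than that of the notes, and are not tied to coordinates in the deposited tables.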

Additional observations from a re-analysis of the deposited data

How the results depend on the processing

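Of 1121 alternative values for the 66 pairs of a member and a comparison with an unadjusted p under 0.05, 1117 kept their direction. The 4 that did not were limma on TPM: Lss in antiIL1R1 against isotype (-0.08 and -0.086 with pseudocounts of 1 and 0.1) and Sc5d in Combo against antiIL1R1 (0.09 with both). The counts of members past the threshold moved more than the directions. The agoCD40 against isotype count of 1 was 0 with total-count scaling, without isotype 2 and antiIL1R1 2, with limma on TPM at both pseudocounts and with only the groups compared. Without a filter on low counts the counts were 1 (Aacs) in antiIL1R1 against isotype, 6 in Combo against isotype, 7 in Combo against agoCD40, 11 in Combo against antiIL1R1 and 7 in the interaction. DESeq2 gave 7, 4, 12 and 5 in the last 4 of these. The mitochondrial covariate gave 4 in Combo against isotype. Combo against antiIL1R1 had 0 without isotype 2 and antiIL1R1 2, 0 with limma on TPM at both pseudocounts and 3 with only the groups compared. The cause of these shifts was not tested.

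The median enzyme difference moved to 0.022 in antiIL1R1 against isotype with limma on TPM at both pseudocounts, to -0.334 and -0.335 in Combo against antiIL1R1, and to -0.384 and -0.479 in the interaction. Without isotype 2 and antiIL1R1 2 the interaction median was -1.009. On log2(TPM + 1) the median of all genes shifted to -0.104 in antiIL1R1 against isotype, 0.199 in Combo against antiIL1R1 and 0.198 in the interaction. Total-count scaling shifted it to 0.112 in Combo against isotype, 0.187 in Combo against antiIL1R1 and 0.127 in the interaction. The calls over all genes in Combo against isotype went from 39 higher and 24 lower to 52 and 10 with that scaling, and in Combo against antiIL1R1 from 20 and 7 to 32 and 5.

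Leaving out each library in turn, the medians ranged from -0.09 to 0.154 (agoCD40 against isotype, 0 to 1 members past the threshold), 0.15 to 0.308 (antiIL1R1 against isotype), -0.539 to -0.4 (Combo against isotype), -0.704 to -0.335 (Combo against agoCD40), -0.802 to -0.526 (Combo against antiIL1R1, 0 members past the threshold each time) and -1.014 to -0.586 (interaction). Replicate numbers are shared between groups, but the 18 same-numbered pairs had correlations from -0.395 to 0.406 (median -0.026), and the own number correlated best in 6 of 36 cases, so the numbers were not taken to pair the libraries. With the replicate block the count in Combo against antiIL1R1 was 0 (Lss adjusted p = 0.0753), and Soat2 in agoCD40 against isotype passed (adjusted p = 0.0323). Precision is limited by 3 libraries per group.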
